A study of Mus musculus with 10 samples.

Results

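Hypoxia-inducible factor 1 (HIF-1) is the transcription factor with which cells answer low oxygen, and 10 mRNAs of its pathway were followed in peritoneal lavage cells of septic mice: Hif1a, Epas1, Egln1, Egln3, Vegfa, Adm, Bnip3, P4ha1, Ndrg1 and Ankrd37. They were chosen by gene symbol from a deposited table of 34745 genes, and all 10 were found there once. Poly(A) RNA was sequenced from peritoneal lavage cells, a mixture rinsed from the abdomen, of mice with cecal ligation and puncture (CLP), a surgical leak of gut bacteria that both groups of mice had undergone. The 5 libraries named AX were read as amlexanox-treated and the 5 named NC as vehicle-treated, because the series compares these treatments, although the labels spell out neither abbreviation. Amlexanox, an anti-inflammatory drug, inhibits the kinases TBK1 and IKKε. The sources used here give no strain, age, dose or time of sampling, and do not say whether animals were pooled. Where libraries did not come from separate mice, the p-values cover just the spread among these libraries, which may be technical.

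In well-oxygenated cells, prolyl hydroxylases of the EGLN family hydroxylate the α subunits HIF-1α (Hif1a) and HIF-2α (Epas1), which marks them for destruction. When oxygen falls, the subunits persist, pair with ARNT and bind short DNA sites built around ACGTG or GCGTG near their target genes. In macrophages and neutrophils Hif1a is also induced by bacterial products, and its targets include enzymes of glycolysis, secreted factors such as VEGF-A, and EGLN3 itself. The protein level of HIF-1α, its hydroxylation and oxygen were not measured here.

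Total counts ran from 10221170 to 13806885 per library, with 11865 (AX 8) to 12851 (NC 1) genes at 10 or more counts. Mitochondrially encoded transcripts made up 4.47% (NC 2) to 20.1% (AX 10) of the counts. Their share was 12.1% in AX 6, 18.6% in AX 8, 8.74% in NC 1 and 15.7% in NC 5. Its relation to the members' levels was not tested. All 8 leukocyte markers, such as Ptprc, Lyz2 and Fcer1g, were detected, with a summed level of 2595 to 5034 CPM (counts scaled to a common library size with TMM factors) in AX and 2679 to 7680 CPM in NC. The upper end in NC was NC 3, where Itgam alone stood at 3385 CPM, against 109 to 546 CPM in all other libraries. The libraries AX 6 and NC 1 stood apart by the summed level of a list of mesothelial markers, that is, of the peritoneal lining. Of 13 mesothelial markers 12 passed the filter on low counts and none was at 0 in all libraries; they summed to 2679 CPM in AX 6, 139 to 412 CPM in the other AX libraries, 1166 CPM in NC 1 and, for the remaining NC libraries, 135 to 366 CPM. In NC 1 the largest mesothelial markers were Krt8 at 408 CPM and Krt19 at 240 CPM. These 2 stood at 140 and 74.8 CPM in NC 4. Msln stood at 206 CPM in NC 1 and 116 CPM in NC 3, and Upk1b at 11.9 and 5.57 CPM. The gap was smaller for Upk3b (35.4 and 30.3 CPM) and Gpm6a (21.6 and 15.6 CPM), and Wt1 stood at 8.36 CPM in both. Stromal markers, with 9 of 10 past the filter, summed to 2929 CPM in AX 6 against 348 to 711 CPM in the other AX libraries, and to 1269 CPM in NC 1 against 239 to 573 CPM in the other NC libraries. Erythroid markers (5 of 5 past the filter) were also highest in AX 6, at 1819 CPM, and NC 1, at 842 CPM, and gut epithelial markers (8 of 9) reached 534 CPM in AX 6, 982 CPM in NC 1 and 428 CPM in NC 4. In such bulk libraries, fewer cells of a type and less RNA per cell cannot be told apart.

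Promoter sequences of 5 members are shown because their mRNAs fell into partly different patterns across the libraries. Vegfa and Adm were highest in the same 3 libraries, AX 6, NC 1 and AX 8. Bnip3 was highest in AX 8, NC 4 and NC 1, in that order, and P4ha1 in NC 4, NC 2 and AX 8. The highest libraries of Bnip3 and P4ha1 thus overlapped in part with those of Vegfa and Adm. Ankrd37 was lowest in the 2 libraries where Vegfa and Adm were highest. Of the 10 members, 8 had an entry in RefSeq's promoter windows on GRCm38.p6, which span 250 bases before to 50 after a transcription start and are 300 bases long; Epas1 and Ndrg1 are named only. The letters ACGTG and GCGTG were searched on both strands, so that CACGT and CACGC count as their reverse complements and the palindrome CACGTG counts 2 times. ACGTG stood in the windows of 6 of 8 members and in 2964 of 11684 windows of tested genes (25.4%), and GCGTG in 5 of 8 members and in 49.96% of those windows. Over all 32851 windows the shares were 19.6% and 32.4%. Capitals mark each match, lower case the rest, and all sequences run 5′ to 3′ on the strand of the gene. The windows are Vegfa (the outermost of 2) at chr17:46032328-46032627 (minus strand), Adm at chr7:110627407-110627706 (plus), Bnip3 at chr7:138909457-138909756 (minus), P4ha1 at chr10:59323046-59323345 (plus) and Ankrd37 at chr8:45999801-46000100 (minus).
Vegfa: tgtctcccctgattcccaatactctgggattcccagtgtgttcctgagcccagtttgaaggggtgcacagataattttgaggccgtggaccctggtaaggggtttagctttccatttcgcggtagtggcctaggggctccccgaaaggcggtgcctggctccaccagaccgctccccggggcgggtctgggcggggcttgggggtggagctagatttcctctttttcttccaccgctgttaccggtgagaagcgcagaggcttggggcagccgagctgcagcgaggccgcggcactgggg
Adm: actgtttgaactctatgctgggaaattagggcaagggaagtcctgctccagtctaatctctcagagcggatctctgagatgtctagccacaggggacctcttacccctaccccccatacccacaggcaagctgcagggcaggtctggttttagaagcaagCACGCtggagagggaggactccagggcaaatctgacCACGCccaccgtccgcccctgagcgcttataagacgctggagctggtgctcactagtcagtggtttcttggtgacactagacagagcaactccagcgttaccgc
Bnip3: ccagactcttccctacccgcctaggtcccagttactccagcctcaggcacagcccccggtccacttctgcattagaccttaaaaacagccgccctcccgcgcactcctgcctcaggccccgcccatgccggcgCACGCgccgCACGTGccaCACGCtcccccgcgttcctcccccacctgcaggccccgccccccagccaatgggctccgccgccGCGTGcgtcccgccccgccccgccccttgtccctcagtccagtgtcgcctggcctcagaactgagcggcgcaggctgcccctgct
P4ha1: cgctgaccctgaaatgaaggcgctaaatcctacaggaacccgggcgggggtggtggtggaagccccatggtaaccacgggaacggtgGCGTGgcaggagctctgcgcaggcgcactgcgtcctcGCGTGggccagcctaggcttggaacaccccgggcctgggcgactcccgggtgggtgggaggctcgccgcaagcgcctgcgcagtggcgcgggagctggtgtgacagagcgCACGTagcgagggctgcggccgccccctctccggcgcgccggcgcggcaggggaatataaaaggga
Ankrd37: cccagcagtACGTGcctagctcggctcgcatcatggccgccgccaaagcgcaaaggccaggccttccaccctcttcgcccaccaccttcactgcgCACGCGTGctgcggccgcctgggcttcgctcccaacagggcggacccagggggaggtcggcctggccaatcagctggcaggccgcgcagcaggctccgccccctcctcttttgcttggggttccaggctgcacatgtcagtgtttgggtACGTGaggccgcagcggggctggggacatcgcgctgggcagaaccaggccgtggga
Within these windows Bnip3 held 2 matches to ACGTG, both within a single palindrome whose first base lay 108 bases before the start site, and 3 to GCGTG. Ankrd37 held 2 matches to each, and P4ha1 held 1 to ACGTG and 2 to GCGTG. Adm held 2 matches to GCGTG, 90 and 54 bases before its start, and none to ACGTG. The Vegfa window held 0 matches to either. For the members, DNA outside these windows was not searched, and the other Vegfa window is not shown, so sites elsewhere near these genes are not covered. Matches describe these letters only, and binding was not measured.

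None of the 10 members showed a difference between AX and NC larger than the spread between libraries. All 10 passed the filter on low counts, and 0 passed an adjusted p of 0.05 with edgeR's quasi-likelihood test (Benjamini-Hochberg over 12264 genes), where 0% of all genes tested passed. DESeq2 also called 0 members and 1 gene over the whole table, Rnf24, and limma-voom called 0. At an unadjusted p under 0.05 there were 0 members, against 113 or 0.921% of all genes tested (0.408% higher and 0.514% lower in AX), and the ranges of the groups overlapped for all 10, whereas 0.139% of all genes tested had groups that did not overlap. Fitted values were higher in AX for 8 members and lower for Egln1 and P4ha1, but Bnip3, one of the 8, turned to -0.029 (log2) when scaled by library totals and to -0.025 in FPKM. This count of 8 was 5 without AX 6, 5 without AX 8 and 10 without NC 4. The members' median log2 fold change was 0.16, beside 0.02 over all genes tested, of which 53.6% were fitted higher. Unadjusted p-values ran from 0.393 to 0.823, and exact two-sided permutation tests of the mean log2 level gave p from 0.413 to 0.952, where 5 against 5 allows a smallest p of 0.00794.

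**Figure D1:**
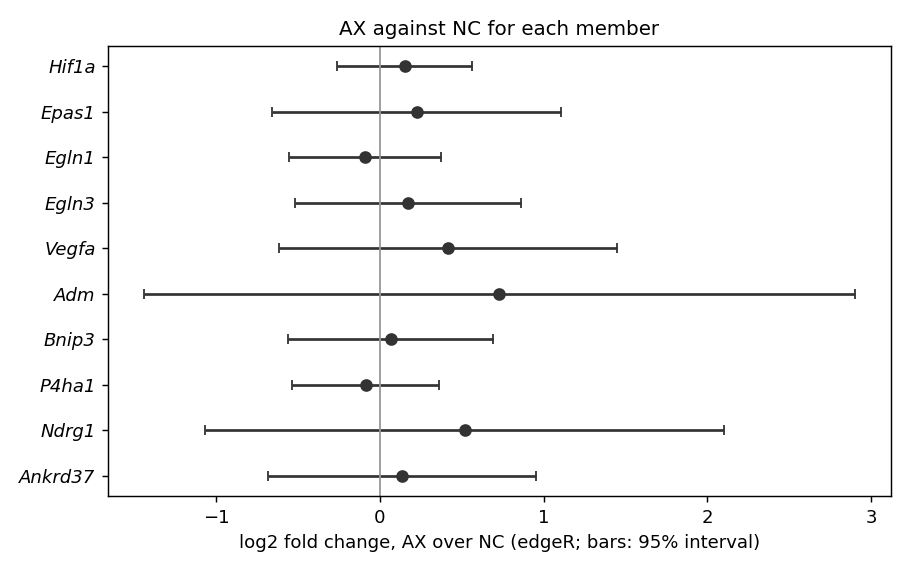
Log2 fold changes of the 10 members, AX over NC, from edgeR's quasi-likelihood fit; points are estimates and bars 95% intervals. All intervals include 0, and they are widest for Adm (-1.44 to 2.90) and Ndrg1 (-1.07 to 2.10) and narrowest for Hif1a (-0.26 to 0.56).

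Of the transcription factor subunits, Hif1a had the highest mean level per length of all members and Epas1 the lowest. In the authors' FPKM, Hif1a averaged 159.6 ± 16.6 and Epas1 1.37 ± 0.66 (SD over 10 libraries). The ratio of Hif1a to Epas1 in FPKM lay between 58.3 in NC 1 and 231 in NC 3. Hif1a (ENSMUSG00000021109, chromosome 12 from 73901375 to 73947530 of mm10, plus strand) stood at 1471, 1115, 1356, 884 and 1056 CPM in AX 6 to AX 10 and at 961, 948, 1068, 1059.8 and 1261 CPM in NC 1 to NC 5. All NC values lay within the AX range, whose ends were AX 6 and AX 9. The means were 1176 ± 236 CPM in AX, against 1059.5 ± 125 CPM in NC. The fitted log2 fold change was 0.15 ± 0.19 (SE), and it was 0.025 without AX 6 and NC 1. Its 95% interval allows folds from 0.834 to 1.48. Hif1a was also the steadiest member: its log2 level had an SD of 0.24 over the 10 libraries, and 9.97% of the genes tested had a lower one. In GENCODE M21 the antisense gene Gm15283 shares 330 exon bases with Hif1a and reached at most 0.721 CPM, and Gm49321, a protein-coding gene on the same strand with 148 shared exon bases, has no level here, so its reads cannot be told apart from those of Hif1a.

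Epas1 (chromosome 17 from 86753907 to 86833410, plus strand), known for its high expression in endothelium, stood at 10.8, 6.61, 8.03, 9.57 and 3.56 CPM in AX 6 to AX 10 and at 12.6, 3.96, 3.53, 6.21 and 6.73 CPM in NC 1 to NC 5. These levels rest on 38 to 146 counts per library. NC 1 and AX 6 were the highest libraries, and the groups overlapped. The log2 fold change was 0.23 ± 0.40 (SE), with a 95% interval of -0.66 to 1.11, and it was 0.44 without AX 6 and NC 1. Of 9 endothelial markers only Esam passed the filter, and Emcn and Ptprb were at 0 in every library. The 9 together summed to 46.7 CPM in AX 6 and 31.4 CPM in NC 1, nearly all of it Esam (45.4 and 29.8 CPM). The part of other cell types in the Epas1 values was not tested.

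The oxygen sensors Egln1 and Egln3, which encode PHD2 and PHD3, were expressed at similar levels per length. Egln1 averaged 39.4 ± 9.02 FPKM and Egln3 35.3 ± 11.3 FPKM, and Egln1 was the higher of them in 6 of 10 libraries, with ratios from 0.782 in AX 8 to 1.84 in NC 5. Egln1, the main hydroxylase of HIF-1α in most cells (chromosome 8 from 124908596 to 124949254, minus strand), stood at 120.3, 115, 163, 124 and 147 CPM in AX 6 to AX 10 and at 147, 142, 127, 204 and 93.4 CPM in NC 1 to NC 5. The AX values lay inside the NC range, whose ends were NC 4 and NC 5. Its log2 fold change was -0.09 ± 0.21 (SE), and it was 0.062 without NC 4. Egln3 (chromosome 12 from 54178981 to 54203860, minus strand), itself a HIF target, stood at 103, 81.5, 158, 92.1 and 63.7 CPM in AX 6 to AX 10 and at 119, 90.9, 99.0, 95.1 and 38.5 CPM in NC 1 to NC 5. AX 8 was the highest and NC 5 the lowest library, a 4.10-fold span. The log2 fold change was 0.17 ± 0.31 (SE), with 2 of 5 AX libraries above the NC median, and it turned to -0.059 without AX 8 and to -0.019 without NC 5.

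**Figure D2:**
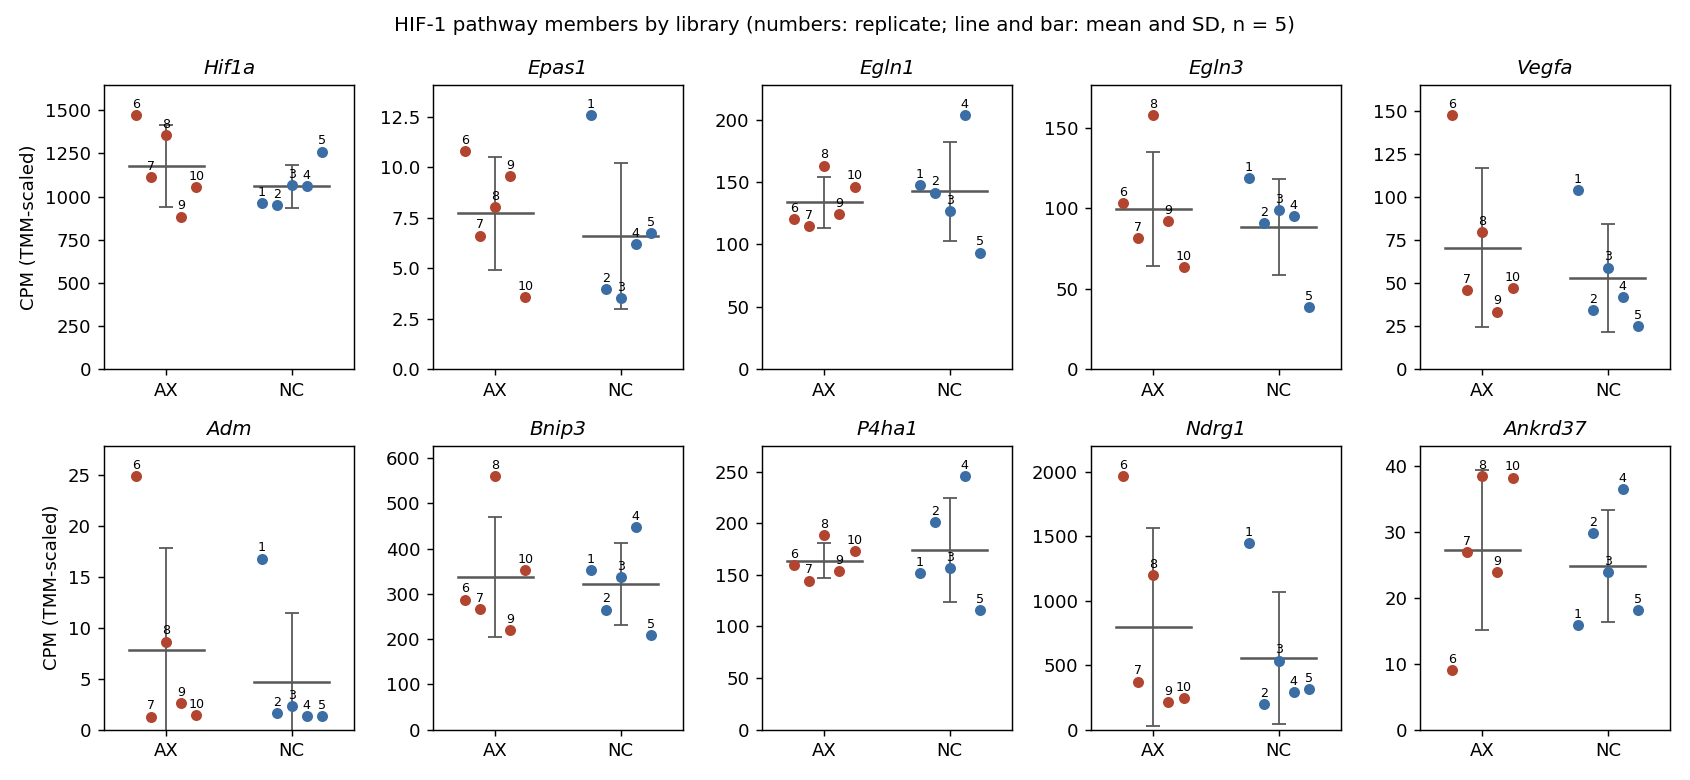
TMM-scaled CPM of each member (vertical axes, linear, from 0) in the 5 AX and 5 NC libraries; each point is a library with its replicate number, the line is the group mean and the bar its SD (the lower bar of Adm is cut at 0). The groups overlap for all 10 members, and AX 6, AX 8 and NC 1 lie above the other libraries for Ndrg1, Adm and Vegfa.

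The secreted targets Vegfa and Adm, with the intracellular target Ndrg1, separated the libraries rather than the groups. For each of these 3 genes the highest library was AX 6, the next NC 1 and the next AX 8. Vegfa, the main growth factor for blood vessels (chromosome 17 from 46016993 to 46032377, minus strand), stood at 147, 45.8, 79.4, 33.3 and 47.0 CPM in AX 6 to AX 10 and at 104, 34.4, 59.0, 41.9 and 25.0 CPM in NC 1 to NC 5. Its means were 70.6 ± 46.2 CPM in AX, against 52.9 ± 31.2 CPM in NC (log2 fold change 0.42 ± 0.47, SE). The fitted value rested on 2 libraries: it was -0.042 without AX 6, 0.82 without NC 1 and 0.36 without both.

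Adm, which encodes the vasodilating peptide adrenomedullin (chromosome 7 from 110627661 to 110629820, plus strand), stood at 24.9, 1.29, 8.65, 2.62 and 1.46 CPM in AX 6 to AX 10 and at 16.8, 1.66, 2.32, 1.31 and 1.35 CPM in NC 1 to NC 5. Outside AX 6, AX 8 and NC 1 it rested on 15 to 40 counts in a library, and the span between AX 6 and AX 7 was 19.3-fold. The fitted log2 fold change of 0.73 had a standard error of 0.99 and a 95% interval of -1.44 to 2.90. It was -0.43 without AX 6, 1.06 without AX 6 and NC 1, and 2.22 without NC 1. That last fit gave an unadjusted p of 0.0298 and an adjusted p of 0.999 with edgeR.

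Ndrg1, a stress-responsive protein strongly induced by hypoxia in many cell types (chromosome 15 from 66929321 to 66969640, minus strand), stood at 1967, 373, 1199, 212 and 244 CPM in AX 6 to AX 10 and at 1448, 198, 536, 292 and 314 CPM in NC 1 to NC 5. AX 6, AX 8 and NC 1 lay at 1199 CPM or above and the other 7 libraries at 536 CPM or below. Of all genes tested, 94.5% had a smaller SD of log2 CPM than Ndrg1 and 97.0% a smaller one than Adm. For Ndrg1 the log2 fold change was 0.52 ± 0.72 (SE), and it was -0.14 without AX 6, 1.25 without NC 1 and 0.60 without both. The overlapping antisense genes of Ndrg1, Gm17035 and Gm2895, reached at most 0.604 CPM.

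Since Ndrg1 and Adm divided the libraries into 3 high and 7 low ones, no correlation between the 3 genes over all 10 is given. The 7 others, left after the values of these genes had shown the gap, were described separately. Among them Ndrg1 and Vegfa gave r = 0.554 and rho = 0.464 (exact permutation p = 0.197 and 0.302, adjusted p = 0.591 and 0.667 over 3 pairs), Ndrg1 and Adm gave r = 0.00748 and rho = -0.357 (exact permutation p = 0.989 and 0.444, adjusted p = 0.989 and 0.667), and Vegfa and Adm gave r = 0.158 and rho = -0.0357 (exact permutation p = 0.719 and 0.963, adjusted p = 0.989 and 0.963). With 7 libraries, a shared order beyond the 3 high ones was not detectable. AX 6 and NC 1 were the libraries with the most mesothelial, stromal and erythroid marker RNA. In AX 8 these markers summed to 299, 631 and 465 CPM in turn, each within the range of the 7 other libraries. The stromal sum was mostly Dcn, at 430 CPM in AX 8 and 584 CPM in AX 7. By mean log2 CPM the stromal list was higher in AX 8 (4.69) than in those 7 libraries (3.40 to 4.29). It was higher still in AX 6 (6.01) and NC 1 (5.59). The leukocyte markers summed to 2595 CPM in AX 6 and 2679 CPM in NC 1, the lowest of their groups, and to 3739 CPM in AX 8, where Ptprc was low (22.4 CPM, against 355 to 1178 CPM in all other libraries) and Laptm5 the highest of all libraries (1680.2 CPM). The part of these cell types in the levels of Ndrg1, Adm and Vegfa was not tested.

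**Figure D3:**
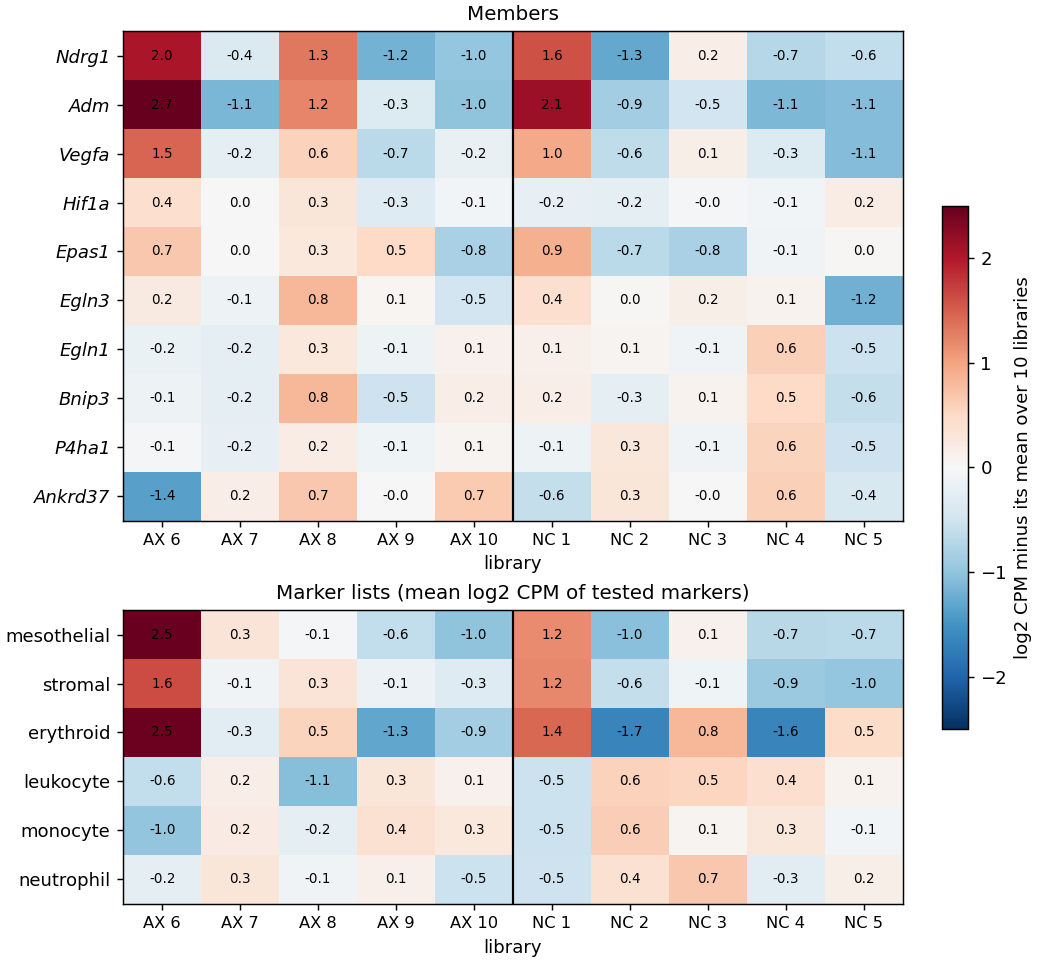
Log2 CPM of each member (top) and mean log2 CPM of marker lists (bottom) by library, AX at the left of the black line and NC at the right, each row minus its mean over the 10 libraries; colour and printed number give the same value. Ndrg1, Adm and Vegfa are above their mean by the most in AX 6, NC 1 and AX 8, and the mesothelial, stromal and erythroid lists in AX 6 and NC 1.

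Over all 10 libraries, 15 of 110 pairs of a member and a marker list passed an adjusted p of 0.05 for Pearson's r and 5 for Spearman's rho, and all 15 involved Ndrg1, Adm or Vegfa. Ndrg1 ran against the monocyte list (r = -0.934, rho = -0.952, permutation p = 4e-05 and 0.00012, adjusted p = 0.00413 and 0.0116) and with the erythroid list (r = 0.895, rho = 0.939, permutation p = 0.00022 and 0.00021, adjusted p = 0.00484 and 0.0116). The monocyte list was not uniform. Its mean was lowest in AX 6 and NC 1, but its marker Plac8 was highest there, at 192 and 280 CPM, against 36.8 to 121 CPM elsewhere. Vegfa ran with the stromal list (r = 0.930, rho = 0.867, permutation p = 0.00013 and 0.00227, adjusted p = 0.00413 and 0.0499). The other pairs past it in rho were Ndrg1 with the mesothelial list and with the endothelial list, whose level here is that of Esam alone. AX 6 and NC 1 stand apart in several of these lists, so the pairs were also computed over the other 8 libraries, a choice made after the values were seen. None of the 110 pairs then passed an adjusted p of 0.05. Ndrg1 gave r = -0.842 and rho = -0.905 with the monocyte list (exact permutation p = 0.0066 and 0.00456, adjusted p = 0.363 and 0.251) and r = 0.751 and rho = 0.881 with the erythroid list (exact permutation p = 0.0158 and 0.00724, adjusted p = 0.405 and 0.266). Vegfa gave r = 0.771 and rho = 0.738 with the stromal list (exact permutation p = 0.0252 and 0.0458, adjusted p = 0.405 and 0.560). These relations thus kept their sign over 8 libraries but passed the threshold only with AX 6 and NC 1. The 8 still held AX 8, the third highest library of these genes. With AX 8 and NC 5 also left out, Vegfa gave r = 0.32 with the stromal list. With AX 8 and NC 3 also left out, Ndrg1 gave r = -0.741 with the monocyte list and 0.667 with the erythroid list.

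The intracellular targets Bnip3 and P4ha1 were each high in NC 4 and AX 8 and lowest in NC 5, but their own correlation did not pass (r = 0.654, rho = 0.539, permutation p = 0.039 and 0.114, adjusted p = 0.184 and 0.321 over 45 pairs of members). Bnip3, a mitochondrial protein of mitophagy and cell death (chromosome 7 from 138890836 to 138909519, minus strand), stood at 287, 267, 560.4, 219.5 and 352 CPM in AX 6 to AX 10 and at 353, 265, 337, 448 and 209 CPM in NC 1 to NC 5. The groups overlapped over nearly their whole range, with means of 337 ± 134 CPM in AX, against 322 ± 90.8 CPM in NC. The log2 fold change of 0.07 ± 0.28 (SE) turned to -0.19 without AX 8 and to -0.057 without NC 5. An antisense gene, Gm45507, shares 504 exon bases with Bnip3 and has no level here. P4ha1, the catalytic subunit of the collagen prolyl hydroxylase (chromosome 10 from 59323296 to 59373304, plus strand), stood at 159.6, 144, 188, 154 and 173 CPM in AX 6 to AX 10 and at 152, 201, 157, 246 and 116 CPM in NC 1 to NC 5. All AX values lay within the NC range. Its means were 164 ± 17.2 CPM in AX, against 174 ± 50.1 CPM in NC, with a log2 fold change of -0.09 ± 0.20 (SE), and 0.057 without NC 4.

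Egln1 moved with both of these targets across the libraries. Egln1 and P4ha1 gave r = 0.919 and rho = 0.733 over 10 libraries (permutation p = 0.00076 and 0.0198, adjusted p = 0.0122 and 0.179 over 45 pairs of members), and r = 0.673 without NC 4 and NC 5. Egln1 and Bnip3 gave r = 0.814 and rho = 0.855 (permutation p = 0.00426 and 0.00304, adjusted p = 0.0383 and 0.134), and r = 0.767 without those libraries. The adjusted p of the rank correlation missed 0.05 for both pairs. NC 5 was the lowest of the 10 libraries for Egln1, Egln3, Vegfa, Bnip3 and P4ha1, although its Hif1a level was the third highest.

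Ankrd37, an ankyrin-repeat protein gene known as a direct HIF-1 target (chromosome 8 from 45996902 to 45999867, minus strand), was lowest in the 2 libraries highest in Vegfa and Adm. It stood at 9.09, 26.9, 38.5, 23.9 and 38.2 CPM in AX 6 to AX 10 and at 15.9, 29.8, 23.9, 36.5 and 18.1 CPM in NC 1 to NC 5. Its lowest libraries were AX 6 and NC 1 and its highest AX 8, so AX 6 and AX 8, both high in Ndrg1, lay at opposite ends for Ankrd37. The log2 fold change was 0.14 ± 0.37 (SE) and the 95% interval -0.68 to 0.96; it was 0.23 without AX 6 and NC 1, -0.0084 without AX 8 and -0.016 without AX 10. Ufsp2, a gene on the other strand that shares 57 exon bases with Ankrd37, was likewise lowest in AX 6 and NC 1, at 23.5 and 29.1 CPM, with 37.6 to 50.5 CPM elsewhere. Lrp2bp, also on the other strand, shares 349 exon bases with Ankrd37 and reached at most 0.327 CPM. Whether the counting used strand is not given in the sources used here, and without strand the reads of these overlapping genes cannot be told apart.

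**Figure D4:**
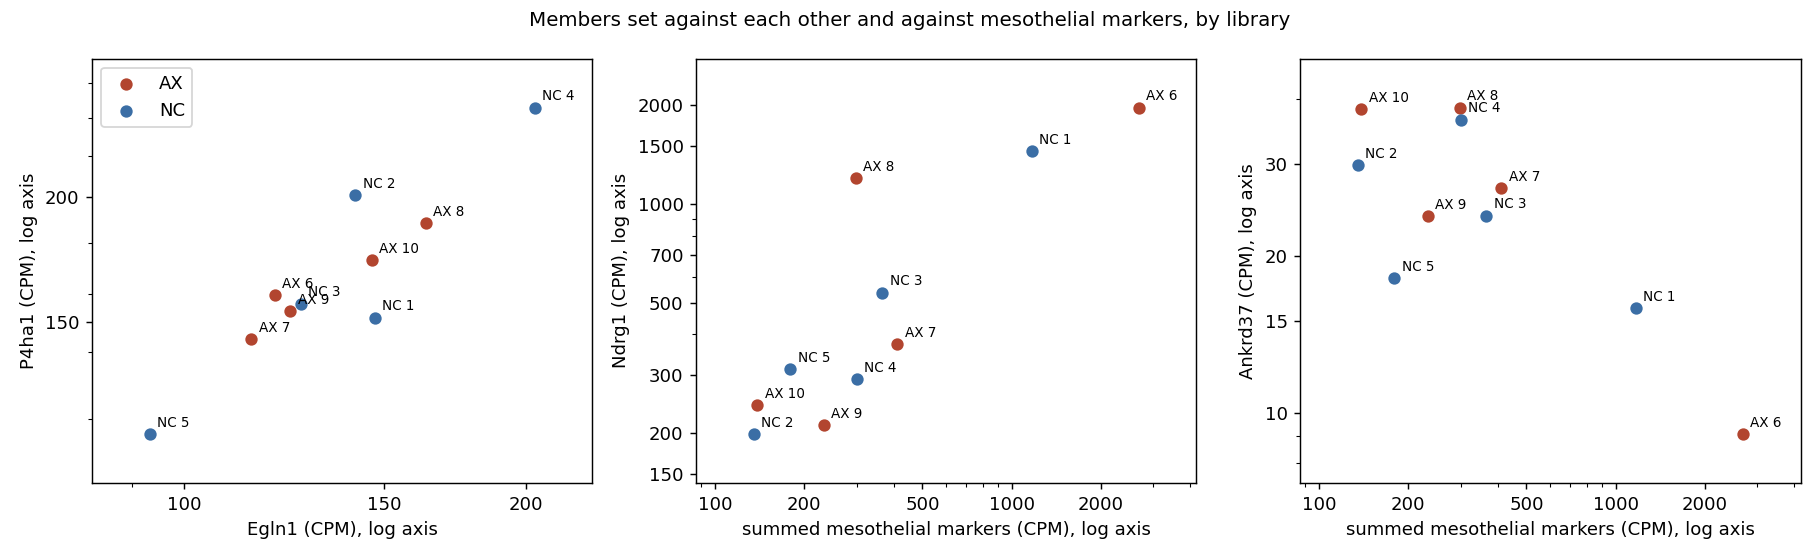
Levels by library on log axes, in TMM-scaled CPM: P4ha1 against Egln1 (left), and Ndrg1 (middle) and Ankrd37 (right) against the summed mesothelial markers; red points are AX and blue points NC libraries. NC 4 and NC 5 lie at the ends of the left plot, and AX 8 is high for Ndrg1 at 299 CPM of mesothelial markers.

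In order of level per length, the members ran from Hif1a through Bnip3 (103 ± 28.4 FPKM), Ndrg1 (78.6 ± 71.8), Egln1, Egln3, P4ha1 (25.9 ± 5.90), Ankrd37 (9.0 ± 3.26), Vegfa (5.88 ± 3.52) and Adm (2.14 ± 2.80) to Epas1 (means ± SD over 10 libraries, authors' FPKM). Ndrg1 exceeded even Hif1a in AX 6 (212 and 193 FPKM) and NC 1 (194 and 157 FPKM). Hif1a exceeded Bnip3, P4ha1 exceeded Ankrd37, and Vegfa exceeded Adm in 10 of 10 libraries. The other neighbours changed places: Bnip3 was above Ndrg1 and Ankrd37 above Vegfa in 8 libraries, Ndrg1 was above Egln1 in 6 libraries, Egln3 above P4ha1 in 7, and Adm above Epas1 in 4, so that Adm was the lower of them by median (0.695 and 1.26 FPKM).

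Genes whose log2 CPM followed 3 of the members most closely over the 10 libraries were picked as the 3 with the highest Pearson r among 7834 candidates with a mean log2 CPM of at least 3. For Hif1a they were the nuclear pore gene Nup50 (r = 0.936, rho = 0.879), the vesicle transport gene Tmed5 (r = 0.906, rho = 0.976) and the ribosomal protein gene Rps24 (r = 0.904, rho = 0.818). For Vegfa they were Ugdh, the enzyme that makes UDP-glucuronate (r = 0.965, rho = 0.915), the cysteinyl-tRNA synthetase gene Cars (r = 0.95, rho = 0.83) and the stress-induced transcription factor gene Atf3 (r = 0.949, rho = 0.867). All 3 had the same 3 highest libraries as Vegfa: Ugdh stood at 339.6, 159 and 284 CPM in AX 6, AX 8 and NC 1 and at 67.8 to 119.6 CPM elsewhere. For Bnip3 they were Ero1l, an oxidase of the endoplasmic reticulum that is itself a HIF target (r = 0.895, rho = 0.842), the transcriptional corepressor gene Daxx (r = 0.884, rho = 0.782) and the mitochondrial folate enzyme gene Mthfd1l (r = 0.877, rho = 0.733). These values describe the highest of many correlations, and share library and depth.

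The rest of the pathway also showed no difference between the groups that passed the threshold. In 4 lists, which held 16 HIF partners and regulators, 18 glycolytic targets, 39 other targets and 8 receptor genes, 0 genes were called in either direction (adjusted p of 0.05, edgeR), with 0 at an unadjusted p under 0.05 against 0.921% of all genes tested. Of 15 tested partners and regulators, such as the von Hippel-Lindau gene Vhl and the hydroxylase gene Hif1an, 12 were fitted higher and 3 lower, and the median log2 fold change was 0.04. The smallest p-values (0.264 and 0.339, unadjusted, edgeR) belonged to Hif3a, another α subunit, at 1.69 ± 1.09 CPM in AX, against 0.938 ± 0.664 CPM in NC, and to Arnt, the partner of HIF-1α, at 29.0 ± 27.9 CPM in AX, against 43.3 ± 21.3 CPM in NC. Arnt varied widely within both groups, with 77.4 CPM in AX 9 and 10.3 to 27.7 CPM in the other AX libraries, and 15.4 to 70.8 CPM in NC. Its log2 fold change of -0.58 was -1.36 without AX 9 (unadjusted p = 0.0131, adjusted p = 0.9997, edgeR). Siah1a, a ubiquitin ligase that targets prolyl hydroxylases, was steadier at 35.8 ± 4.47 CPM in AX, against 32.5 ± 4.03 CPM in NC.

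Glucose and glycolysis targets were divided, with 10 of 18 fitted higher, 8 fitted lower and 0.03 as the median log2 fold change. Aldoc, an aldolase, stood at 3.01 ± 1.34 CPM in AX, against 2.02 ± 1.02 CPM in NC, and Pfkp, a phosphofructokinase, at 92.9 ± 16.8 CPM in AX, against 76.5 ± 20.2 CPM in NC. The lactate exporter gene Slc16a3 stood at 481 ± 56.7 CPM in AX, against 560.1 ± 153 CPM in NC. Of 37 other tested targets, 24 were fitted higher and 13 lower, with a median of 0.07. Hmox1, the heme-degrading enzyme, stood at 1379 ± 367 CPM in AX, against 1708 ± 254 CPM in NC, the collagen crosslinking enzyme gene Lox at 44.1 ± 30.1 CPM in AX, against 25.0 ± 23.7 CPM in NC, and the adenylate kinase gene Ak4 at 93.1 ± 60.5 CPM in AX, against 67.3 ± 18.0 CPM in NC.

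Of 8 genes for receptors of VEGF-A and adrenomedullin and their partners 7 were tested, 3 of them fitted higher and 4 fitted lower in AX (median log2 fold change -0.15). Kdr, a VEGF receptor gene, stood at 1.51 ± 1.0 CPM in AX, against 2.48 ± 1.47 CPM in NC, and Flt1, another, at 1.78 ± 1.70 CPM in AX, against 1.19 ± 0.462 CPM in NC. Calcrl, the receptor of adrenomedullin, stood at 9.79 ± 4.36 CPM in AX, against 13.5 ± 6.52 CPM in NC, and of its accessory protein genes, Ramp3 stood at 8.13 ± 4.11 CPM in AX, against 7.96 ± 2.25 CPM in NC, Ramp1 at 2.35 ± 1.16 CPM in AX, against 2.77 ± 0.961 CPM in NC, and Ramp2 did not pass the filter. The VEGF co-receptor gene Nrp2 stood at 31.6 ± 9.42 CPM in AX, against 35.1 ± 6.32 CPM in NC; Nrp2, Ramp1 and Ramp3 were named after their values were seen.

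**Figure D5:**
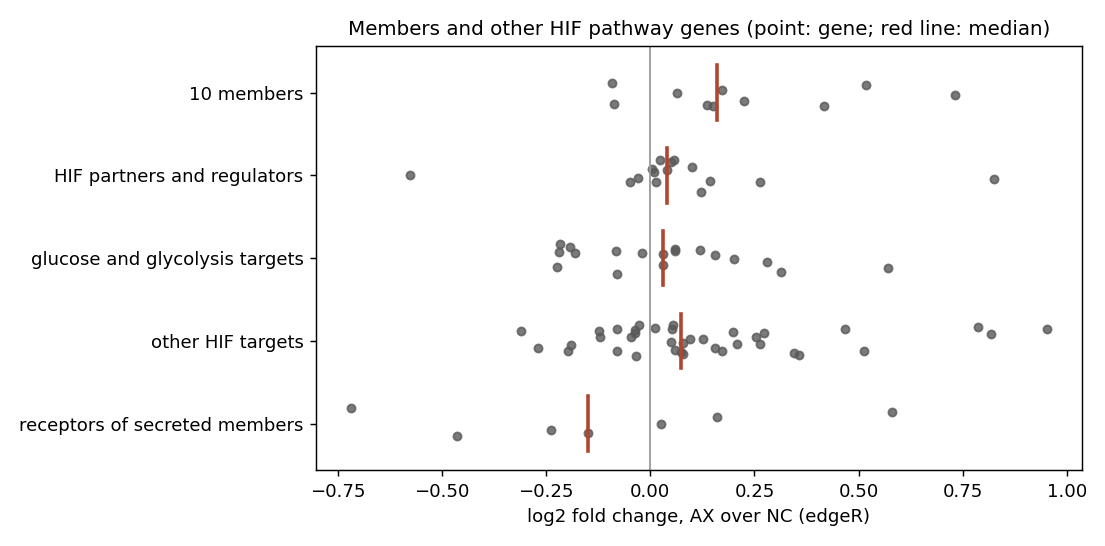
Log2 fold changes, AX over NC, of the 10 members and of the tested genes in 4 lists of the HIF pathway; each point is a gene, shifted vertically for legibility, and red lines mark medians. The medians run from -0.15 for the receptors to 0.16 for the members, and no gene passed the adjusted threshold.

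The 3 highest libraries of Ndrg1, Vegfa and Adm were also the highest for a share of the other targets. AX 6, AX 8 and NC 1 were the 3 highest libraries, in any order, for 4 of 10 members (Ndrg1, Vegfa, Adm and Egln3) and 10 of 37 other targets (27%). The same held for 0 of 18 glycolytic targets, 0 of 15 partners and regulators, 0 of 7 receptor genes and 607 of 12264 genes tested (4.95%). These libraries were picked from the members' own values, so the count over the members is a description only. Among these targets were Car9, Ddit4, P4ha2, Plod2, Lox, Higd1a and Fam162a. Plod2, a collagen lysyl hydroxylase shown here after its values were seen, stood at 71.2, 33.7 and 70.1 CPM in AX 6, AX 8 and NC 1, beside 8.89 to 20.2 CPM elsewhere.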

How the data were processed

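Poly(A) RNA of peritoneal lavage cells was measured in 5 AX and 5 NC libraries. Per the submitters' processing notes the genome was mm10 and HISAT2 2.0.4 was used; no source used here names the counting tool, the annotation or the strand setting. The deposited table holds raw counts, made by the authors, and beside them the authors' deposited FPKM, which are relative to gene length and library total. The main test, in edgeR 4.0.16 under R 4.3.3, used filterByExpr, TMM, the two-sided quasi-likelihood F test of AX against NC and Benjamini-Hochberg adjustment at 0.05. CPM are counts scaled to TMM-adjusted library totals, and log2 values add 0.5. FPKM served to compare levels between genes and in an alternative with limma 3.58.1. DESeq2 1.42.0, other scalings, filters and covariates and leaving out libraries were alternatives. Correlations over 10 libraries used 100000 permutations and those over 7 or 8 all orders, in Python 3.11.15 with scipy 1.17.1, Pearson's r and Spearman's rho, adjusted within each family. Named genes were the members, up to 3 genes with the smallest p in each pathway list, and the 3 genes most like Hif1a, Vegfa and Bnip3. Members and lists were chosen with earlier results of these data known. The fit and the correlations were tested on simulated data. No molecular identifiers are described, so the 10221170 to 13806885 counts per library may include copies of the same molecule. Standard errors and intervals rest on the spread between libraries as well as on these counts.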

Additional observations from a re-analysis of the deposited data

Results flagged for a closer look

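In 4 of the 44 sets of 5 libraries examined (22 named genes in AX and in NC), a single library lay far from the other 4 by Dixon's test. Its chance rate of about 1 in 20 holds for independent sets of normally distributed values. These sets were CPM without log transformation and came from the same 10 libraries, so their count cannot be judged against that rate. Adm stood at 16.8 CPM in NC 1, against 2.32 CPM in the next NC library. Ndrg1 stood at 1448 CPM in NC 1, against 536 CPM in the next. Lox stood at 66.3 CPM in NC 1, against 24.1 CPM in the next. Without NC 1 the log2 fold change of Lox, AX over NC, was 1.58 (unadjusted p = 0.00841, adjusted p = 0.999, edgeR), and over all 10 libraries it was 0.82. Arnt stood at 77.4 CPM in AX 9, against 27.7 CPM in the next AX library. Without AX 9 the log2 fold change of Arnt, AX over NC, was -1.36 (unadjusted p = 0.0131, adjusted p = 0.9997, edgeR), and over all 10 libraries it was -0.58.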

How the results depend on the processing

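No member and no gene of the pathway lists was called under any alternative run, and the count over all genes stayed at 0 except for 1 gene, Rnf24, with DESeq2 (log2 fold change -5.48) and without NC 3 with edgeR, so that this count ran from 0 to 1 over the fits leaving out a library. Leaving out each library in turn moved the log2 fold change of Vegfa between -0.042 and 0.82, Adm between -0.43 and 2.22, Ndrg1 between -0.14 and 1.25, Egln1 between -0.21 and 0.062, Egln3 between -0.059 and 0.30, Bnip3 between -0.19 and 0.21, P4ha1 between -0.20 and 0.057, Ankrd37 between -0.016 and 0.36 and Flt1 between -0.17 and 0.83, each changing sign. Hif1a (0.06 to 0.23) and Epas1 (0.07 to 0.59) kept theirs. Bnip3 also turned negative with voom quality weights (-0.19), library totals without TMM (-0.029), FPKM (-0.025) and the neutrophil covariate (-0.0069); Ak4 did with quality weights (-0.18) and Flt1 with the mesothelial covariate (-0.11). The cause was not tested. With library totals in place of TMM, 9 rather than 15 of 110 pairs of a member and a marker list passed an adjusted p of 0.05 for Pearson's r, and 0 did without AX 6 and NC 1 (an alternative chosen after seeing the data), while Egln1 with Bnip3 no longer passed under library totals (r = 0.748, adjusted p = 0.116). No paired analysis was possible because the groups share no replicate number. Adm fell below the filter in the stricter and FPKM alternatives.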
